A study of Mesocricetus auratus with 8 samples.

Results

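The expression of 10 genes for ubiquitin ligases with known roles in muscle was followed through cold exposure of Syrian hamster satellite cells (SCs), which serve skeletal muscle as its own stem cells. They were taken by gene symbol from a deposited RNA-seq table of 17590 genes with values: Trim54, Trim55, Trim63 and Trim72, which encode RING finger proteins of the TRIM family, Fbxo32, Fbxo40 and Fbxo30, which encode F-box proteins, Asb2 and Asb5, which encode ankyrin repeat proteins with a SOCS box, and Klhl31, which encodes a BTB-kelch protein. All 10 symbols had exactly 1 row, and all 10 NCBI Gene identifiers carried the same symbol in RefSeq. The set was proposed from the cold against control contrast itself, so the differences below are a description of these libraries. No p-value is given for a member, and where members are counted among the genes called, the choice favoured that count and nothing is read from it.

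A ubiquitin ligase chooses the proteins that are tagged with ubiquitin and sent to the proteasome. TRIM proteins bind the ubiquitin-loaded enzyme directly through their RING finger, whereas F-box, SOCS-box and BTB-kelch proteins are the substrate receptors of larger complexes built on a cullin. In adult muscle, Trim63 (MuRF1) and Fbxo32 (atrogin-1) are best known as genes that rise when fibers waste, and several of the others are linked to the sarcomere, the sarcolemma or the maturation of the muscle cell.

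Primary SCs were isolated by collagenase digestion and preplating from hindlimb muscle of wild-type male Syrian hamsters (Slc:Syrian, sexually mature) and were grown in growth medium (GM) on Matrigel. All dishes shared culture at 37°C, the last 24 h of it in GM with HEPES. Control libraries (n = 4) were made before cold exposure, and cold libraries (n = 4) after a further 24 h at 4°C in the same medium, so that the cold libraries are also 24 h older and the effects of temperature and of time cannot be told apart. The titles place all control libraries on day 3 in GM, whereas their treatment labels give 3, 4, 5 and 6 days at 37°C for replicates 1 to 4. The sources call the replicates biological but do not say whether they came from separate animals or dishes, and any p-value measures the spread between these libraries only. Libraries held between 16530747 and 18533801 expected counts. The first principal component (54.5% of the variance) set replicates 1 and 2 apart from 3 and 4, in control as in cold libraries, and the second (17.9%) parted cold from control.

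The identity of the cells was read from marker lists. All 10 satellite cell and myoblast markers were measured, among them Pax7 (12.7 ± 2.17 TPM before and 13.5 ± 1.70 TPM after cold exposure, SD over 4 libraries each) and Myod1 (614 ± 103 and 567 ± 98.0 TPM, SD, n = 4 each), where TPM is a level scaled to the same total in each library and corrected for transcript length. Their summed level was 2223 to 2622 TPM in control and 2120 to 2460 TPM in cold libraries. All 14 markers of differentiated myocytes were also present, with sums of 3394 to 6847 TPM in control and 1927 to 3335 TPM in cold libraries. Of the fibroblast markers, 8 of 9 had values, with sums of 1047 to 1565 TPM in control and 1037 to 1521 TPM in cold libraries. Pericyte and smooth muscle markers summed to 38.7 to 62.9 TPM in control and 36.4 to 61.9 TPM in cold libraries, most of it Pdgfrb (42.5 ± 11.3 and 41.5 ± 11.6 TPM, SD over 4 libraries each). Endothelial, Schwann cell and adipocyte markers summed to at most 3.97, 2.77 and 1.08 TPM in any library. The macrophage and leukocyte markers with values, 4 of 5, summed to 25.9 to 54.2 TPM in control and 26.4 to 55.7 TPM in cold libraries. Most of this was Cd68 (34.1 ± 12.2 TPM before and 37.7 ± 14.0 TPM after cold exposure, SD over 4 libraries each), with Csf1r at 3.16 ± 1.03 and 3.43 ± 0.948 TPM, whereas Ptprc and Adgre1 had at most 2 and 1 counts in any library.

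The 10 genes were used at very different levels in control SCs. Asb5 stood highest, with a mean of 349 TPM, and was followed by Trim55 (190 TPM), Trim72 (59.3 TPM), Fbxo30 (29.4 TPM), Trim63 (13.6 TPM), Klhl31 (7.64 TPM), Trim54 (2.58 TPM), Fbxo32 (1.5 TPM), Asb2 (0.5 TPM) and Fbxo40 (0.01 TPM). Neighbours in this order had separate ranges over the 4 control libraries, except that Trim63 overlapped with Klhl31 and Trim54 with Fbxo32. In the cold libraries the ranges of Trim72 and Fbxo30 overlapped, and those of Trim63 and Klhl31 did not. Trim54 and Fbxo32 changed places there, with all 4 cold values of Fbxo32 above those of Trim54, and Trim54 overlapped with Asb2 instead (means of 0.340 and 0.343 TPM). Asb5 alone held between 49.4% and 55.6% of the summed TPM of the 10 genes in control libraries and between 53.5% and 64.0% in cold libraries. The textbook wasting ligases Trim63 and Fbxo32 ranked 5 and 8 of the 10 in control and 5 and 7 in cold libraries.

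**Figure D1:**
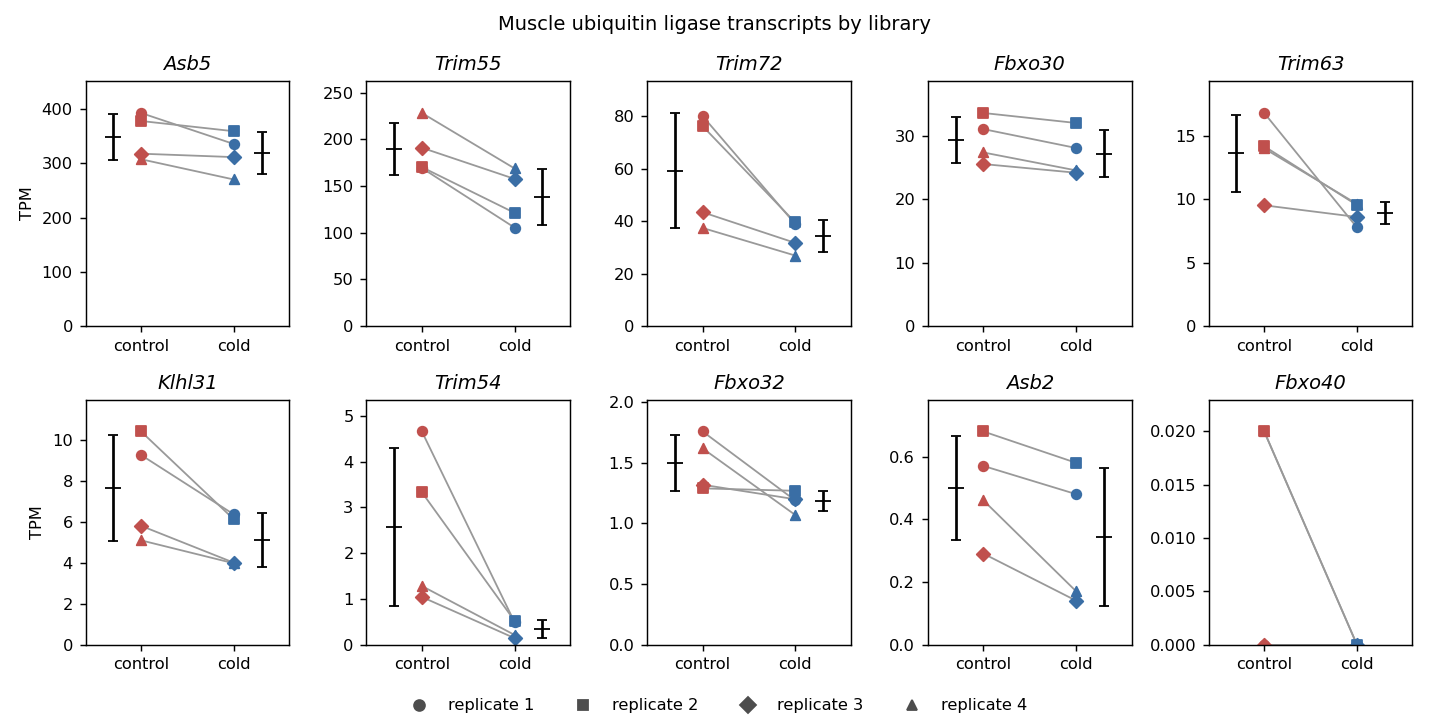
TPM of each of the 10 genes in every library, ordered by control level (linear axes from 0, 1 scale per gene). Symbols mark replicates 1 to 4 and grey lines join libraries of the same replicate number; black bars give the mean ± SD of 4 libraries and are left out for Fbxo40, which had at most 1 count in any library. In all genes but Fbxo40, each of the 4 lines slopes downward from control to cold.

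Of the 10 genes, 9 had enough counts for the fit of all genes, and Fbxo40 did not. In all 9, the cold library lay below the control library of the same number in 4 of 4 pairs, a pattern that 10.5% of the 12506 genes tested showed. The 4 cold values lay below all 4 control values in 3 of the genes (Trim54, Trim55 and Fbxo32), as they did in 2.41% of all genes tested. All 9 fitted log2 fold changes were below 0, as were 47.1% of those of all genes, and their median was −0.57 beside 0.0071 over all genes. These shares stand as background only, since the genes were picked from this contrast. In bulk RNA, fewer cells of a type and less RNA per cell cannot be told apart.

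No member was called by edgeR's quasi-likelihood test at an adjusted p under 0.05 (Benjamini-Hochberg over all genes tested), where 0.072% of all genes were called lower and 0% higher, or 0.04% lower when an absolute log2 fold change of 1 or more was also required. At an unadjusted p under 0.05, edgeR gave 516 of all genes lower and 322 higher. With the replicate number as a block, 7 of the 9 members were called lower (all but Fbxo32 and Asb2), beside 4.07% of all genes (5.33% counting both directions). With the fold threshold 1 member, Trim54, was called, beside 0.808% of all genes. With DESeq2, 1 member (Trim54) was called lower at an adjusted p under 0.05, beside 1.1% of all genes.

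**Figure D2:**
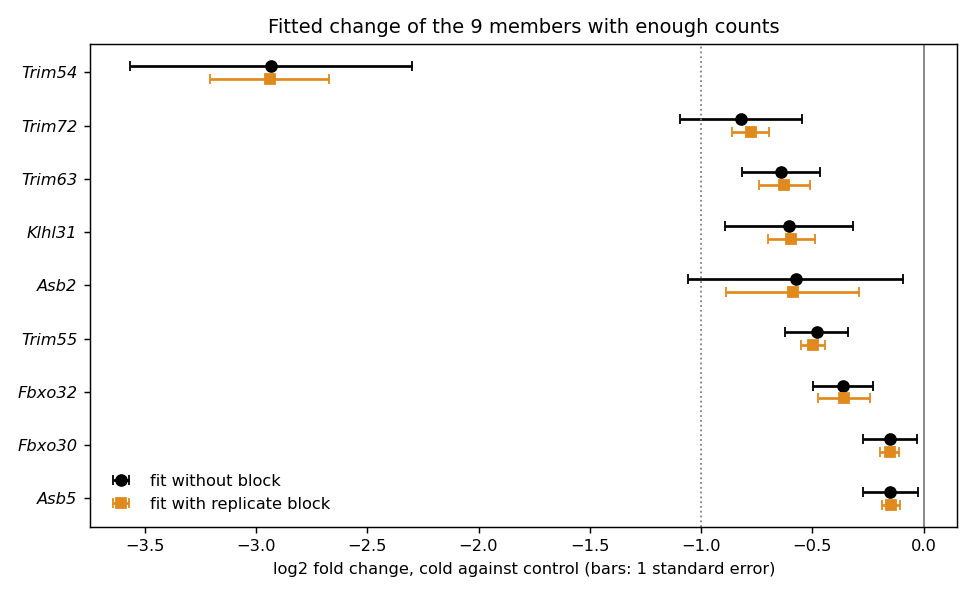
Log2 fold change of the 9 genes with enough counts, cold against control, from edgeR without a block (black circles) and with the replicate number as a block (orange squares); bars are 1 standard error and the dotted line marks a log2 fold change of −1. Trim54 sits at −2.93 in the unblocked fit, and the other 8 lie between −0.82 and −0.15, with shorter error bars in the blocked fit.

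The MuRF genes Trim63, Trim55 and Trim54 encode closely related RING ligases that bind titin and microtubules in the sarcomere, and they can pair with each other. Trim63 (NCBI Gene 101832210), the MuRF1 gene, was at 16.8, 14.2, 9.53 and 14.0 TPM in control replicates 1 to 4 and at 7.79, 9.55, 8.61 and 9.64 TPM in the cold libraries. The 2 groups overlapped only through control replicate 3, whose 9.53 TPM lay between the cold values. Mean levels were 13.6 ± 3.02 and 8.90 ± 0.873 TPM (SD, n = 4 each), with a log2 fold change of −0.64 (standard error 0.18, or 0.11 with the replicate block). Each cold library held between 46.3% and 90.3% of the TPM of its control, least in pair 1 and most in pair 3. Without control replicate 3, the log2 fold change was −0.79, and Trim63 was the 1 member called by edgeR. That fit called 45 of all genes lower where the fit of all libraries called 9. Leaving out any other library gave −0.69 (cold replicate 2) to −0.51 (control replicate 1), with no member called.

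Trim55 (101832602), the MuRF2 gene, was by far the most abundant of the 3 genes, with between 88.7% and 94.8% of their summed TPM in control and between 92.3% and 94.7% in cold libraries. It was at 169, 170, 191 and 228 TPM in control replicates 1 to 4 and at 105, 121, 158 and 169 TPM in the cold libraries. The groups were separate by a narrow margin, since the lowest control value was 169.3 TPM and the highest cold value 168.9 TPM. Cold libraries held between 62.3% and 82.5% of the paired control level, and the log2 fold change was −0.48 (standard error 0.14, or 0.05 with the replicate block). Replicates 3 and 4 were the higher ones in both groups, which was the reverse of most other members.

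Trim54 (101824260), the MuRF3 gene, showed the largest difference of the set. Its TPM was 4.66, 3.33, 1.04 and 1.28 in control replicates 1 to 4 and 0.490, 0.520, 0.140 and 0.210 in the cold libraries. Control values were thus spread over a wide range, with replicates 1 and 2 well above 3 and 4, and all of them lay above every cold value. These levels rested on 71, 53, 15 and 20 counts in control and on 8, 8, 2 and 3 counts in cold libraries, and 2 of the cold libraries were at or under the floor of 3 counts, so no ratio is given pair by pair. The log2 fold change was −2.93 (standard error 0.63, or 0.27 with the replicate block). The gene had enough counts for the fit only through its control libraries. The size of the fold change depended on the scale: with limma on log2(TPM + 1) it was −1.30, where the pseudocount outweighs the cold TPM values.

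Trim72 (101843642) encodes MG53, a TRIM protein of the sarcolemma known for membrane repair. It was at 80.1, 76.2, 43.4 and 37.4 TPM in control replicates 1 to 4 and at 38.9, 39.5, 31.7 and 26.9 TPM in the cold libraries. Control replicates 1 and 2 stood well apart from 3 and 4, and control replicate 4 lay below the 2 highest cold libraries, so the groups overlapped. Cold libraries held 48.5% and 51.8% of the control level in pairs 1 and 2 and 73.0% and 71.8% in pairs 3 and 4, a difference between pairs that was not tested. Means were 59.3 ± 22 and 34.2 ± 6.05 TPM (SD, n = 4 each), with a log2 fold change of −0.82 (standard error 0.27, or 0.08 with the replicate block).

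Among the F-box genes, Fbxo32 (101826300), the gene for atrogin-1, was low throughout. It was at 1.76, 1.29, 1.32 and 1.62 TPM in the controls and at 1.19, 1.27, 1.20 and 1.07 TPM in cold replicates 1 to 4, from 92 to 151 counts a library. The lowest control value, 1.29 TPM, was just above the highest cold value, 1.27 TPM, and both belonged to replicate 2. Its log2 fold change was −0.36 (standard error 0.14, or 0.12 with the replicate block), and it was 1 of the 2 genes of the set that the blocked fit did not call.

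Fbxo30 (101842751) encodes MUSA1, an F-box protein linked to muscle wasting downstream of BMP signalling. It was at 31.1, 33.7, 25.6 and 27.4 TPM in the controls and at 28.1, 32.1, 24.2 and 24.6 TPM in cold replicates 1 to 4. The groups overlapped over most of their range, and cold libraries kept between 89.7% and 95.3% of the paired control level. The log2 fold change was −0.15 (standard error 0.12, or 0.04 with the replicate block), smaller than the spread between replicates of one group. Leaving out 1 library gave −0.25 (cold replicate 2) to −0.08 (control replicate 2). Fbxo40 (101823900), whose product targets the insulin receptor substrate IRS1, had 1 count in each of control replicates 2 and 4 and 0 in the other 6 libraries. Both groups were therefore at or under the floor of 3 counts, and no fold is given at this depth.

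Asb5 and Asb2 encode SOCS-box receptors of cullin 5 complexes, of which ASB2 is known for the degradation of filamins in differentiating muscle cells. Asb5 (101829407) was at 393, 378, 318 and 308 TPM in the controls and at 336, 359, 312 and 270 TPM in cold replicates 1 to 4. The groups overlapped, and cold libraries held between 85.5% and 98.0% of the paired control level. The log2 fold change of Asb5 was −0.15 (standard error 0.12, or 0.04 with the replicate block), about that of Fbxo30, and leaving out 1 library gave −0.22 (cold replicate 2) to −0.08 (control replicate 1 or cold replicate 4). Asb2 (101842412) was at 0.570, 0.680, 0.290 and 0.460 TPM in the controls and at 0.480, 0.580, 0.140 and 0.170 TPM in cold replicates 1 to 4, from 4 to 21 counts a library. Its groups overlapped and its counts were few, and the log2 fold change of −0.57 carried a standard error of 0.48 (0.30 with the replicate block). Leaving out 1 library gave −0.96 (cold replicate 2), −0.38 (control replicate 2), −0.35 (cold replicate 4) or −0.31 (cold replicate 3), and values between these for the others.

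Klhl31 (101822665), a BTB-kelch protein of muscle, was at 9.26, 10.4, 5.80 and 5.09 TPM in the controls and at 6.36, 6.12, 4.00 and 3.97 TPM in cold replicates 1 to 4. As with Trim72, replicates 1 and 2 were higher than 3 and 4 in both groups, and the cold values of replicates 1 and 2 exceeded the control values of 3 and 4. Cold libraries held between 58.8% and 78.0% of the paired control level. The log2 fold change was −0.61 (standard error 0.29, or 0.11 with the replicate block).

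The members differed in how they varied between libraries of one group, a measure that does not use the cold against control contrast. Within control libraries, the SD was 12.2% of the mean for Asb5 and 12.3% for Fbxo30, 37.1% for Trim72 and 67.0% for Trim54. Control replicates 1 and 2 were both above 3 and 4 in 7 of the 10 genes, and in cold libraries this held for 6 (Trim54, Trim72, Fbxo30, Asb2, Asb5 and Klhl31). Trim55 was the 1 gene with replicates 1 and 2 below 3 and 4, and it was so in both groups. The differentiated myocyte markers ran with the majority: their summed TPM was 6839, 6847, 3394 and 3828 in control and 2805, 3335, 2043 and 1927 in cold replicates 1 to 4. The fibroblast markers ran the other way, as Trim55 did, with sums of 1056, 1047, 1374 and 1565 TPM in control and 1114, 1037, 1391 and 1521 TPM in cold replicates 1 to 4. The macrophage and leukocyte sums were likewise lower in replicates 1 and 2 (25.9 to 30.6 TPM) than in 3 and 4 (40.2 to 55.7 TPM) over both groups. The part of these cell types in the members' library pattern was not tested.

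Deviations from the group mean of log2(TPM + 0.1) were compared over the 8 libraries for the 8 members averaging 1 TPM or more. Trim54 passed this cut through its control libraries alone, as its cold mean was 0.34 TPM. Its cold deviations rest on 2 to 8 counts a library, and they enter every r given for Trim54 below. All correlations are descriptions, since each library contributes the same sample and depth to every gene, and the split of replicates 1 and 2 from 3 and 4 runs through all of them. Over all pairs of the 8 members the median r was 0.41, and it was 0.18 without control replicate 3, 0.19 without control replicate 1 and 0.68 without control replicate 2. Klhl31 and Trim72 were most alike (r = 0.95), and Trim54, Trim72, Fbxo30, Asb5 and Klhl31 correlated with each other at r of 0.80 to 0.95. Trim55 ran against these 5 genes, with r between −0.88 and −0.72. Trim63 and Fbxo32, the wasting ligases, followed neither side closely, with r of 0.54 between them and of 0.49 (Trim63) and 0.34 (Fbxo32) with the mean profile of the 14 differentiated myocyte markers. With that profile Klhl31, Trim54, Asb5 and Trim72 had r between 0.95 and 0.96, Fbxo30 had 0.92 and Trim55 had −0.82.

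**Figure D3:**
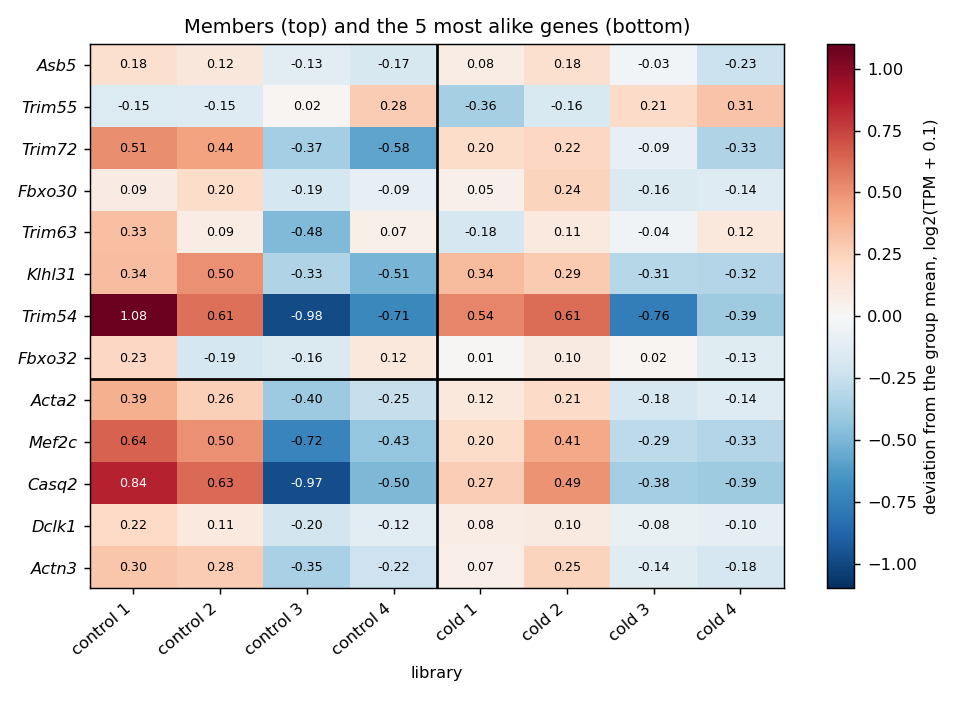
Deviation of each library from its group mean on the log2(TPM + 0.1) scale, for the 8 members averaging 1 TPM or more (above the line) and the 5 genes whose deviations were most alike to the members' mean (below it); red is above and blue below the group mean, and the vertical line parts control from cold. Trim54 reaches 1.08 in control replicate 1 and −0.98 in control replicate 3, and Trim55 has the opposite sign from Trim72, Klhl31 and the genes below the line in all 8 libraries.

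Among 10493 other genes with a symbol and an average of 1 TPM or more, the 5 whose deviations were most alike to the mean of these 8 members were Acta2 (r = 0.998), Mef2c (0.997), Casq2 (0.997), Dclk1 (0.992) and Actn3 (0.991), each over 8 libraries. Acta2 encodes smooth muscle actin, Mef2c a myogenic transcription factor, Casq2 a calcium-binding protein of the sarcoplasmic reticulum, Dclk1 a microtubule-associated kinase and Actn3 an alpha-actinin of the Z disc. Trim54 had the widest deviations and so weighs most in that mean, although its cold deviations rest on only 2 to 8 counts a library. Mean levels in control and cold libraries were 16.1 and 3.16 TPM for Casq2, and 1526 and 1097 TPM for Acta2.

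The rest of the ubiquitin system was described with 10 gene lists, chosen when earlier results of these data were known, so that their counts and p-values are no independent evidence. The fit of all genes called 1 of their 205 genes tested (0.072% of all genes were called lower), or 7 with DESeq2 (1.1% of all genes) and 22 lower and 1 higher with the replicate block (4.07% and 1.26% of all genes). Among the shared subunits of cullin complexes, 20 of 20 genes were tested and 0 were called in either fit. Their median log2 fold change was 0.0057, and the single values ranged from −0.18 for Cul7 to 0.12. The scaffold partner Elob averaged 365 ± 24.8 TPM before and 329 ± 3.94 TPM after cold exposure (SD over 4 libraries each), and Uba3, an enzyme that activates the cullin modifier NEDD8, averaged 108 ± 10.4 and 98.4 ± 4.73 TPM. Ubiquitin itself with its E1 and E2 enzymes gave 24 of 24 genes tested, 0 called in either fit and a median of −0.0016, with Ube2d1 (log2 fold change −0.12), Ube2w (−0.12) and Ube2o (0.13) farthest from 0. At an unadjusted p under 0.05, edgeR gave 2 lower and 1 higher among the cullin subunits and 0 among the ubiquitin genes, and DESeq2 called 0 in both lists.

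**Figure D4:**
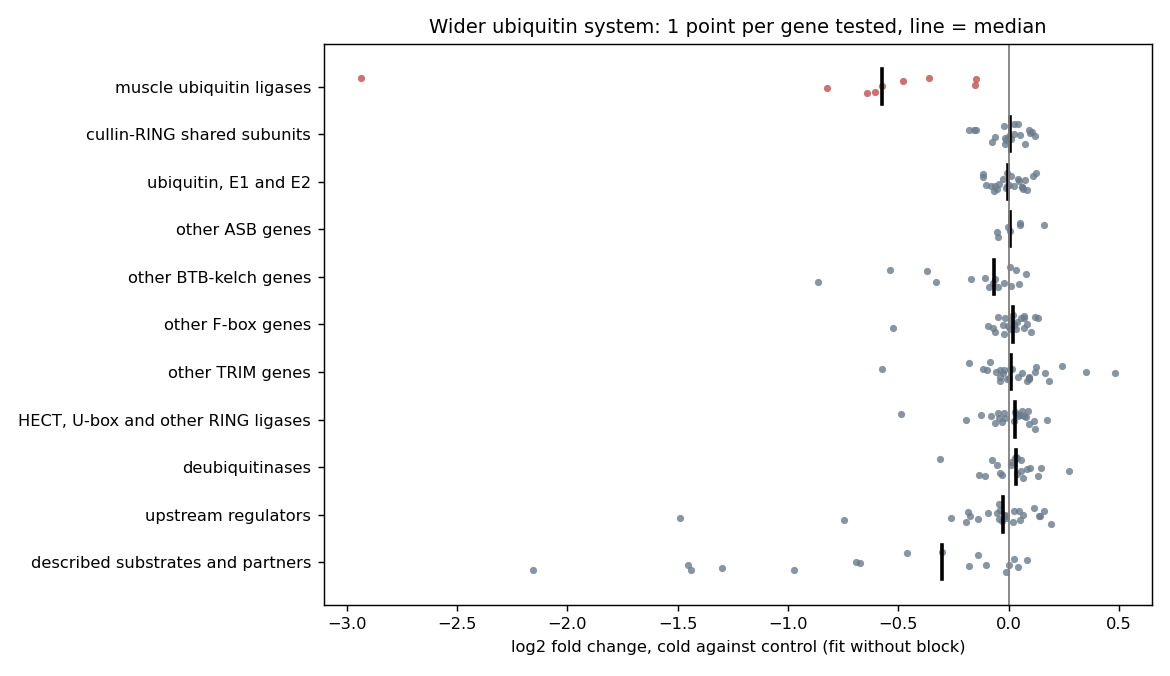
Log2 fold change, cold against control, of every tested gene of the 10 lists (grey) and of the 9 members tested (red), from edgeR without a block; points are spread vertically for legibility only and the black line is the list's median. The members' median is −0.57, the medians of 9 lists lie between −0.07 and 0.03, and that of the described substrates and partners is −0.30.

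The families of the members were read the same way. Of 15 other ASB genes with values, 7 were tested, with a median of 0.0053 and 0 called in either edgeR fit, by DESeq2 or at an unadjusted p under 0.05. Asb1 (0.16), Asb13 (0.05) and Asb8 (−0.05) had the log2 fold changes farthest from 0. The other 8, among them Asb10, Asb11, Asb12 and Asb15, averaged at most 0.198 TPM. Of the other BTB-kelch genes, 16 of 19 were tested, with a median of −0.07. Without the block edgeR called 0 of them (4 were lower at an unadjusted p under 0.05), DESeq2 called 1 (Klhl13), and with the block edgeR called 3 lower. These 3 were Klhl41 (102 ± 32.2 TPM before and 57.1 ± 13.8 TPM after cold exposure, SD over 4 libraries each, log2 fold change −0.86, edgeR adjusted p = 0.445, or 1.28e-07 with the block), Klhl40 (−0.54) and Klhl13 (−0.37). Klhl40 and Klhl41 are muscle proteins that stabilize thin filament components.

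Of the other F-box genes, 24 of 24 were tested, with a median of 0.02. Without the block edgeR called 0 (1 lower at an unadjusted p under 0.05), as did DESeq2. The blocked fit called 1, Fbxl22, which encodes a Z disc F-box protein and averaged 6.24 ± 1.49 TPM before and 4.43 ± 0.901 TPM after cold exposure (SD over 4 libraries each, log2 fold change −0.52). Skp2 (log2 fold change 0.12) and Fbxo25 (0.13) were not called. Of the other TRIM genes, 28 of 32 were tested, with a median of 0.01. Without the block edgeR called 0 (1 lower at an unadjusted p under 0.05), as did DESeq2. The blocked fit called 1 in each direction, Trim35 lower (−0.18 in both fits) and Trim37 higher (0.18, or 0.19 with the block). Trim21 had a log2 fold change of 0.24 from a mean near 1 TPM. The HECT, U-box and other RING ligases gave 23 of 23 tested, a median of 0.03 and 0 called in either edgeR fit or by DESeq2 (1 higher at an unadjusted p under 0.05). Among those averaging 1 TPM or more, Neurl2 (−0.19), Cbl (0.18) and Mul1 (−0.12) were farthest from 0. Of 21 deubiquitinases, all tested, the median was 0.03. Without the block edgeR called 0 (2 lower and 1 higher at an unadjusted p under 0.05), as did DESeq2. The blocked fit called 1, Usp2 (8.66 ± 0.749 and 7.17 ± 0.499 TPM, SD, n = 4 each, log2 fold change −0.31). Uchl5 (0.15) and Tnfaip3 (0.27) were not called.

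Regulators known to act on these ligase genes gave uneven values. Of 29 listed, 26 were tested, with a median of −0.02. Without the block edgeR called 0 (2 lower and 1 higher at an unadjusted p under 0.05), DESeq2 called 1 (Mef2c), and 6 were called lower with the block, Mef2c, Myog, Myod1, Mef2a, Mef2d and Akt2, 1 of them (Mef2c) past the fold threshold. Mef2c averaged 23.2 ± 10.3 TPM before and 8.44 ± 2.18 TPM after cold exposure (SD over 4 libraries each) and had a log2 fold change of −1.49 (edgeR adjusted p = 0.224, or 3.43e-09 with the block). Myog, the differentiation factor myogenin, had a log2 fold change of −0.74 (edgeR adjusted p = 0.824, or 2.96e-09 with the block). Ddit4, a stress gene, had −0.26 and was not called. Mef2c and Myh3 belong to the genes that the study picked from these same libraries, so their direction is no independent evidence. The genes of the FoxO factors, the best known activators of Trim63 and Fbxo32, were not called in either fit. Log2 fold changes were −0.09 for Foxo1, −0.04 for Foxo3 and −0.04 for Foxo4, 3 genes named after their values were seen. These are RNA levels, and the activity of the FoxO proteins was not measured.

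The described substrates and partners of the ligases were the list with the lowest median, −0.30, with 13 of 17 tested genes below 0. This median depended on single libraries: it was −0.16 without control replicate 2, −0.18 without cold replicate 4, −0.19 without cold replicate 3 and −0.50 without cold replicate 2, and −0.20 with limma on log2(TPM + 0.1). The list shares 3 genes (Ckm, Myh3 and Tnni1) with the differentiated myocyte markers, 2 (Myod1 and Des) with the satellite cell and myoblast markers and 1 (Myod1) with the regulators. The regulators share 1 gene (Myog) with the myocyte markers and 1 (Myod1) with the myoblast markers. Without the block 1 gene was called lower, Dysf, which encodes the membrane repair protein dysferlin and averaged 4.16 ± 0.443 TPM before and 2.15 ± 0.328 TPM after cold exposure (SD over 4 libraries each, log2 fold change −0.97, edgeR adjusted p = 0.0454). That call held in 6 of 18 alternatives, with adjusted p between 7.53e-08 and 0.208, and was lost when any library other than control replicate 3 was left out. The log2 fold change lay between −1.08 and −0.91 when a library was left out. At an unadjusted p under 0.05, edgeR gave 5 of the list lower and 0 higher, and DESeq2 called 5 lower. With the block, 11 of 17 were called lower and 0 higher (64.7%, beside 4.07% of all genes called lower), 4 of them past the fold threshold. Cav3, which encodes caveolin-3 of the sarcolemma and a partner of MG53, had a log2 fold change of −2.16, called with the block and by DESeq2 but not without the block (edgeR adjusted p = 0.306 without and 5.91e-07 with it). Myh3, the embryonic myosin heavy chain, had a log2 fold change of −1.45, and Ckm, the muscle creatine kinase, −1.44.

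Of the marker lists, that of differentiated myocytes had the lowest median. All 14 had log2 fold changes below 0, with a median of −1.44, and none of them was at 0 in any library. Without the block edgeR called 0 and with it all 14 lower. The study called Acta1, Myh3, Myl1 and Tnnt1 lower from these same libraries, so the direction of this list is no independent evidence. The satellite cell and myoblast list had a median of −0.07 with 7 of 10 genes below 0. Without the block edgeR called 0 of them, and with it 4 lower, Chodl (log2 fold change −1.84, means of 2.09 and 0.575 TPM), Cdh15 (−0.33), Itga7 (−0.30) and Myod1 (−0.14), beside 4.07% of all genes. The fibroblast list had a median of 0.0006 with 4 of 8 below 0 and 0 called in either fit. The part of these shifts in the members' differences was not tested.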

How the data were processed

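RNA-seq (polyadenylated RNA, paired-end reads of 150 bases) had been run on 4 control and 4 cold cultures. The submitters' processing notes name HISAT and HISAT2, without roles. The genome build, counting program and versions are not given in the sources used here. The deposited table gives expected counts and TPM per gene and library, both the authors' values, and a normalized signal, which the authors obtained by scaling the counts with 1 factor per library and which was used only to check that factor. It has 31581 entries, of which 17590 hold values, and no unused column.

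Expected counts were rounded and fitted with edgeR 4.0.16 (R 4.3.3; TMM factors, filterByExpr, quasi-likelihood test, Benjamini-Hochberg adjustment over 12506 genes), without a block as the main design and with the replicate number as a block as an alternative. A gene was called at an adjusted p under 0.05. DESeq2 1.42.0 and limma 3.58.1 on log2(TPM + 0.1) were further alternatives. Same-numbered control and cold libraries deviated together (r of 0.61 to 0.66 over 12506 genes in the 4 pairs, beside −0.61 to 0.59 for different numbers), so the numbers were taken to pair the libraries; the labels do not say what they share. Libraries of one group differed beyond sampling noise, and none was counted as a duplicate. On counts simulated without replicate differences, the unblocked fit recovered 200 of 200 genes changed by a log2 fold of 2, with 0 false calls among 12436 genes. On counts simulated with such differences, the blocked fit recovered 200 of 200, with 1 false call among 12430 genes. The changed genes were well counted and their fold exceeded that of every member but Trim54. Recovery of smaller changes, and by the unblocked fit where replicates differ as here, was not tested.

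The members and gene lists were chosen with earlier results of these data known. Named are the members, in each list the 3 genes with the largest absolute log2 fold change among those with a mean of at least 1 TPM and any gene called, the 5 genes most alike to the members, and Pax7, Myod1 and Myog. Genes called only with the block or by DESeq2, the other markers and filtered ASB genes named, and Foxo1, Foxo3 and Foxo4 fall outside this rule and were chosen after their values were seen. Symbols were matched to RefSeq by NCBI Gene identifier. The depth bounds precision: 16530747 to 18533801 counts per library, with a floor of 3 counts per library. No fold is given where both groups are at or under it.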

Additional observations from a re-analysis of the deposited data

How the results depend on the processing

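All 161 alternative fold changes of the members were below 0. They are refits of the same libraries from whose contrast the members were picked, so the shared sign is a description only. Trim54 ranged from −3.23 to −1.30, Asb2 from −0.96 to −0.17 (limma on log2(TPM + 1)), Fbxo30 from −0.25 (without cold replicate 2) to −0.08 (without control replicate 2), Asb5 from −0.22 to −0.08, Fbxo32 from −0.43 to −0.19, Klhl31 from −0.77 to −0.41, Trim72 from −1.003 to −0.63, Trim63 from −0.79 to −0.51 and Trim55 from −0.59 to −0.37. Members called were 0 in the unblocked edgeR fit (0.072% of all genes called lower), 7 with the replicate block (4.07%) and 1 with DESeq2 (1.1%). When each library was left out in turn they were 0 to 1, in fits that called 0 to 45 of all genes lower. The choice of members favoured these counts, and nothing is read from them. The numbers were taken to pair the libraries, which the labels do not state. The block also moved the genes called lower from 9 to 509 and higher from 0 to 158. With the fold threshold it moved them from 5 to 101 and from 0 to 5. Genes called lower were 137 with DESeq2, 14 with library totals, 25 with no filter on low counts, 4 with the stricter filter, 3, 4 and 3 with limma at pseudocounts of 0.1, 1 and 0.01, 3 with limma and no TPM filter, and 0 to 45 leaving out a library. With the fold threshold these counts were 66, 8, 15, 3, 2, 3, 2 and 2, and 0 to 33. Genes called higher were 5 with DESeq2 (0 with the fold threshold), and 0 to 1 leaving out a library, with as without that threshold.

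With limma the median log2 fold change of the cullin subunits (0.0057) was 0.025, 0.024, 0.025 and, with no TPM filter, 0.025, and that of the substrates and partners (−0.30) was −0.20, −0.19, −0.20 and −0.20. Leaving out a library gave medians of −0.023 to 0.016 (cullin subunits), −0.021 to 0.032 (ubiquitin, E1 and E2), −0.077 to 0.041 (ASB), −0.083 to −0.052 (BTB-kelch), −0.0099 to 0.034 (F-box), −0.018 to 0.055 (TRIM), −0.0046 to 0.038 (HECT, U-box and RING), −0.0050 to 0.051 (deubiquitinases), −0.046 to 0.0028 (regulators) and −0.50 to −0.16 (substrates and partners), and a median pairwise r among members (0.41) of 0.18 to 0.68. Where the signs of list medians so near 0 changed, the cause was not tested.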
